A study of Mus musculus with 8 samples.

Results

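AP-1 and immediate early factors were followed in mouse bone marrow-derived macrophages (BMDMs). The group held 10 genes of the 54532 in the count files: the AP-1 subunit genes Fos, Fosb, Jun, Junb and Jund, the related leucine zipper gene Atf3, the zinc finger genes Egr1, Egr2 and Klf6, and Ier3. They were listed by name and matched to Ensembl identifiers, with no threshold on a measured value, and all 10 passed the filter on low counts. The members and the other gene lists used below were chosen with earlier results of these data known. Shares of listed genes called, set beside shares of all tested genes, are therefore not independent of these data. BMDMs are macrophages grown from marrow, here from mice aged 6 to 8 weeks and kept for 7 days in medium with L929 cell supernatant. Polyadenylated RNA was sequenced from 8 libraries in 4 groups of 2. The groups were wild-type cells (WT), cells of mice without the cytosolic DNA exonuclease Trex1 (Trex1-KO), and Trex1-KO cells given the STING antagonist H151 at 500 nM (Trex1-KO+H151) or the STING antagonist SN-011 (Trex1-KO+SN-011). All cells were incubated for 12 h with antagonist or with DMSO, the vehicle of the WT and Trex1-KO groups. The labels give no SN-011 dose, and the study's methods name the same dose for both antagonists. The study describes the libraries of a group as independent experiments, but neither it nor the labels say whether they came from separate mice, so p-values measure only the spread between these libraries.

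Total counts per library ran from 11845470 to 17284863. Values are given as counts scaled to a common library total (CPM), adjusted by the trimmed mean of M-values (TMM), in which 1 count was worth between 0.0582 and 0.0849 CPM. Trex1 had 0 counts in all 8 libraries, WT included, so the knockout could not be checked on these counts. The 8 macrophage markers summed to between 30090 and 32360 CPM in every library, of which Lyz2 alone gave 20300 to 23080 CPM. The 3 T cell markers summed to at most 0.34 CPM, the 3 B cell markers to at most 0.791 CPM and the 3 dendritic cell markers to at most 2.13 CPM. In bulk RNA, fewer cells of a type and less RNA per cell cannot be told apart.

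AP-1 is a dimer of basic leucine zipper proteins: Fos proteins do not pair with each other and pair mainly with Jun proteins, whereas Jun proteins also pair with each other and with ATF proteins. Many of its genes, like the Egr genes, are immediate early genes. Transcription of such genes starts within minutes of a stimulus without new protein synthesis, under MAP kinases and serum response factor, and is usually brief. In macrophages these factors act at many enhancers of inflammatory and differentiation genes.

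The promoters of the 4 members that differed between Trex1-KO and WT cells are shown because AP-1 and ATF factors are known to bind promoters of their own family. RefSeq promoters (GRCm38.p6) were matched for 9 of the 10 members. The 250 bases before the start site are printed 5′ to 3′ on the strand of the gene, with every match to a searched motif in capitals. Jun lies on the minus strand at chr4:95052223-95052472, Atf3 on the minus strand at chr1:191183334-191183583, from a start site within the annotated gene, Klf6 on the plus strand at chr13:5861239-5861488 and Ier3 on the plus strand at chr17:35821463-35821712.
Jun: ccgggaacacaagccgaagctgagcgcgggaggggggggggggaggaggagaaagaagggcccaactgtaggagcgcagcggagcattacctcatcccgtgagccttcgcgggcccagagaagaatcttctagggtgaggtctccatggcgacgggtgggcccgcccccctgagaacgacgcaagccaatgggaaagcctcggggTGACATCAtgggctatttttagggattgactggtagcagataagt
Atf3: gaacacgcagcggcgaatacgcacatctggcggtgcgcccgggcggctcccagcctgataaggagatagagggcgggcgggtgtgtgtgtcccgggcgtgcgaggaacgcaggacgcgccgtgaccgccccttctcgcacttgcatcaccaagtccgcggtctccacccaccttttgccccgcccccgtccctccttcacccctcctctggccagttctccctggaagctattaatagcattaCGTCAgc
Klf6: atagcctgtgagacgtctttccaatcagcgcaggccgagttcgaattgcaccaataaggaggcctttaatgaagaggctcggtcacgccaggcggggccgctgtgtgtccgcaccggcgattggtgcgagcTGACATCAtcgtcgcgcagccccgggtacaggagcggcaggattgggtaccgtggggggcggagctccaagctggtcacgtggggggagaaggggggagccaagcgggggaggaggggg
Ier3: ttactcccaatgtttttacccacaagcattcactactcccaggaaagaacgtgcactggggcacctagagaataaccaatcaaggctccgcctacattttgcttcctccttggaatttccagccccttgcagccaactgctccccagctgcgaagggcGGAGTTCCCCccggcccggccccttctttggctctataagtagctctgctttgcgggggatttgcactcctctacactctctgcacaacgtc
Jun and Klf6 each held the letters TGACATCA, at -45 to -38 in Jun and at -119 to -112 in Klf6, counted back from -1 at the last base before the start site. These letters match TGANNTCA, an ATF/Jun element that 11.9% of all 32851 promoters of this length held on either strand, and the exact letters TGACATCA, counted after the matches were seen, were held by 2.93%. Atf3 held TGACG, the half-site of a cyclic AMP response element (CRE), in reverse at -7 to -3, and 17.8% of all promoters held it. Ier3 held an NF-kB motif in reverse at -92 to -83, a motif found in 3.9% of promoters. None of these 4 windows held the full CRE, TGACGTCA (1.55% of promoters, itself a case of TGANNTCA and of the half-site), the AP-1 motif TGANTCA (6.75%), the Egr motif GCGNGGGCG (4.7%) or a CArG box, the serum response factor motif (1.47%). Members that did not pass the test of Trex1-KO against WT cells held motifs of the same kinds. Jund held an ATF/Jun element with the letters TGAAATCA at -61 to -54. Its start site here, chr8:70697739, lies upstream of the annotated gene, which begins at 70698949. Fos, Fosb, Junb and, at some of its start sites, Egr2 held the CRE half-site, and Fos and Fosb held an NF-kB motif. Fosb also held the Egr motif and Egr2 a CArG box. A match describes letters in a window and was not tied to any expression value.

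Per kb of exon, the members spanned more than 2 orders of magnitude, and the order of their levels differed between groups. In WT cells Atf3 was highest, at 91.7 CPM per kb, followed by Klf6 at 68.0, Junb at 58.0, Fos at 50.2, Ier3 at 40.4, Jun at 30.1, Jund at 22.6, Egr1 at 8.75, Egr2 at 2.90 and Fosb at 0.31 CPM per kb. No neighbours in that order had overlapping libraries. The place of Jund in each group is uncertain, since 52.6% of its exonic bases are shared with the antisense gene Gm11175. Reads from those bases may be missing from its count. In Trex1-KO cells Jun lay above Ier3, at 41.7 against 26.9 CPM per kb, and the Fos libraries (41.2 and 43.2 CPM per kb) overlapped those of Jun (39.9 and 43.5 CPM per kb). Fos and Jun also overlapped in Trex1-KO+H151 cells, at means of 43.7 and 43.5 CPM per kb. In Trex1-KO+SN-011 cells Jun lay above Fos, at 45.8 against 38.2 CPM per kb, while the Jund and Ier3 libraries overlapped at means of 28.7 and 27.7 CPM per kb.

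**Figure D1:**
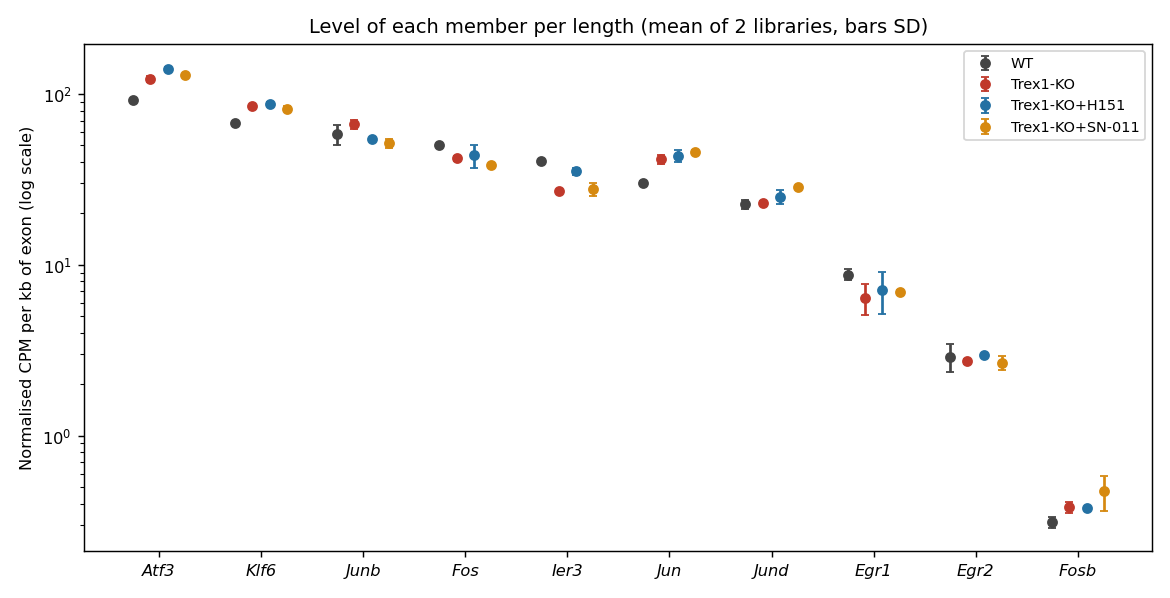
Normalised CPM per kb of exon (log scale) of each member, ordered by its WT level, in the 4 groups. Points are means of 2 libraries and bars are SDs: Atf3 is highest and Fosb lowest in every group, and Jun and Ier3 change places between WT and the 3 Trex1-KO groups. The place of Jund is uncertain, since 52.6% of its exonic bases are shared with another gene.

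The comparison of Trex1-KO with WT cells asks what loss of Trex1 did to these factors. Jun, Atf3 and Klf6 rose, each by between 1.26-fold and 1.38-fold, and Ier3 fell to 0.666 of its WT level. With edgeR's quasi-likelihood test and Benjamini-Hochberg adjustment over all 14591 tested genes, 4 of 10 members passed an adjusted p of 0.05, 3 higher and 1 lower, against 16.4% of all tested genes (9.27% higher and 7.11% lower). The median log2 fold change of the members was 0.11, beside -0.002 over all tested genes. The libraries of the 2 groups did not overlap for 7 of the 10 members, against 56.1% of all tested genes.

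Jun (ENSMUSG00000052684, single-exon gene at chr4:95049034-95052222, GRCm38) encodes c-Jun, a main partner of Fos. It was measured at 94.1 and 98.0 CPM in WT cells, at 139 and 127 CPM in Trex1-KO cells, 147 and 131 CPM in Trex1-KO+H151, and 144 and 149 CPM in Trex1-KO+SN-011. Both WT libraries lay below the other 6. Jun was 1.38-fold higher in Trex1-KO than in WT cells (log2 fold change 0.47, SE 0.0723; adjusted p = 0.000429). Of its exonic bases, 7.3% are shared with the antisense gene Junos, which had 13 to 26 counts per library.

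Atf3 (ENSMUSG00000026628, chr1:191170296-191218039) encodes a stress-induced ATF protein that represses many inflammatory genes in macrophages. Its level was 197 and 198 CPM in WT, then 257 and 272 CPM in Trex1-KO, 299 and 308 CPM in Trex1-KO+H151, and 276 and 279 CPM in Trex1-KO+SN-011. The WT libraries were again the lowest, and the H151 libraries were the highest. The Trex1-KO level was 1.34-fold that of WT (log2 fold change 0.42, SE 0.0564; adjusted p = 0.00013). Klf6 (ENSMUSG00000000078, chr13:5861482-5870394) encodes a zinc finger factor of the Krüppel-like family. It stood at 300 and 297 CPM in WT cells, at 377 and 373 CPM in Trex1-KO, 378 and 394 CPM in Trex1-KO+H151, and 354 and 368 CPM in Trex1-KO+SN-011. WT libraries lay below all others, and Trex1-KO exceeded WT 1.26-fold (log2 fold change 0.33, SE 0.054; adjusted p = 0.000697).

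Ier3 (ENSMUSG00000003541, chr17:35821684-35822923) encodes a stress-induced protein linked to cell survival and is not a transcription factor. It was at 45.1 and 46.3 CPM in WT cells, at 30.6 and 30.3 CPM in Trex1-KO, 38.7 and 41.3 CPM in Trex1-KO+H151, and 33.2 and 29.4 CPM in Trex1-KO+SN-011. The WT libraries were highest, the H151 libraries came next, and the Trex1-KO and SN-011 libraries overlapped at the bottom. From WT to Trex1-KO it changed by -0.59 on the log2 scale (SE 0.0898; adjusted p = 0.000401). Jun, Atf3, Klf6 and Ier3 were called under all 16 alternative settings and left-out libraries for this comparison.

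Fos (ENSMUSG00000021250, chr12:85473890-85477273), the founding AP-1 partner of Jun, was at 118 and 119 CPM in WT cells, at 102 and 96.9 CPM in Trex1-KO, 114 and 91.6 CPM in Trex1-KO+H151, and 91.5 and 88.1 CPM in Trex1-KO+SN-011. Egr1 (ENSMUSG00000038418, chr18:34859823-34864984), which encodes an early growth response factor, was at 41.3 and 37.2 CPM in WT cells, at 32.8 and 24.4 CPM in Trex1-KO, 38.0 and 25.6 CPM in Trex1-KO+H151, and 31.6 and 30.8 CPM in Trex1-KO+SN-011. For both genes the WT libraries lay above the Trex1-KO libraries, and the H151 libraries lay far apart from each other. Neither passed the test between Trex1-KO and WT, with a log2 fold change of -0.25 for Fos (SE 0.086; adjusted p = 0.0645) and -0.46 for Egr1 (SE 0.163; adjusted p = 0.0756). Fos passed under 6 of 16 alternatives and Egr1 under 8, among them the fits without Trex1-KO+H151 replicate 1 (adjusted p = 0.00751 for Fos and 0.0112 for Egr1) or replicate 2 (0.00729 and 0.0102). Without Trex1-KO replicate 1, Egr1 alone passed (adjusted p = 0.0199).

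The other 4 members did not pass. Junb (ENSMUSG00000052837, chr8:84974484-84978718), whose product is a weaker activator than c-Jun at many sites, was at 146 and 121 CPM in WT cells and at 160 and 146 CPM in Trex1-KO cells, groups that overlapped (log2 fold change 0.19, 95% interval 0.01 to 0.38; adjusted p = 0.159), although it passed without WT replicate 1 (0.0263). Of its exonic bases, 7.5% are shared with Prdx2. Jund (ENSMUSG00000071076, chr8:70698949-70700616), the Jun gene most steadily expressed in resting cells, was at 36.1 and 39.3 CPM in WT cells and at 38.9 and 37.5 CPM in Trex1-KO cells (log2 fold change 0.02, 95% interval -0.18 to 0.21). Its level is uncertain, since 52.6% of its exonic bases lie opposite the antisense gene Gm11175, which had 0 counts in all libraries. Fosb (ENSMUSG00000003545, chr7:19302696-19310051), another Fos protein gene, had only 25 to 59 counts per library, or 1.84 and 2.03 CPM in WT cells and 2.26 and 2.51 CPM in Trex1-KO cells, and its interval of -0.33 to 0.93 was the widest of the 10. With H151 Fosb was at 2.36 and 2.35 CPM and with SN-011 at 3.43 and 2.46 CPM. Egr2 (ENSMUSG00000037868, chr10:67535475-67542188), an Egr factor of myeloid differentiation, was at 11.2 and 8.54 CPM in WT cells and at 9.43 and 9.04 CPM in Trex1-KO cells (log2 fold change -0.09, 95% interval -0.45 to 0.26), and with H151 and SN-011 it stayed between 8.50 and 10.2 CPM.

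**Figure D2:**
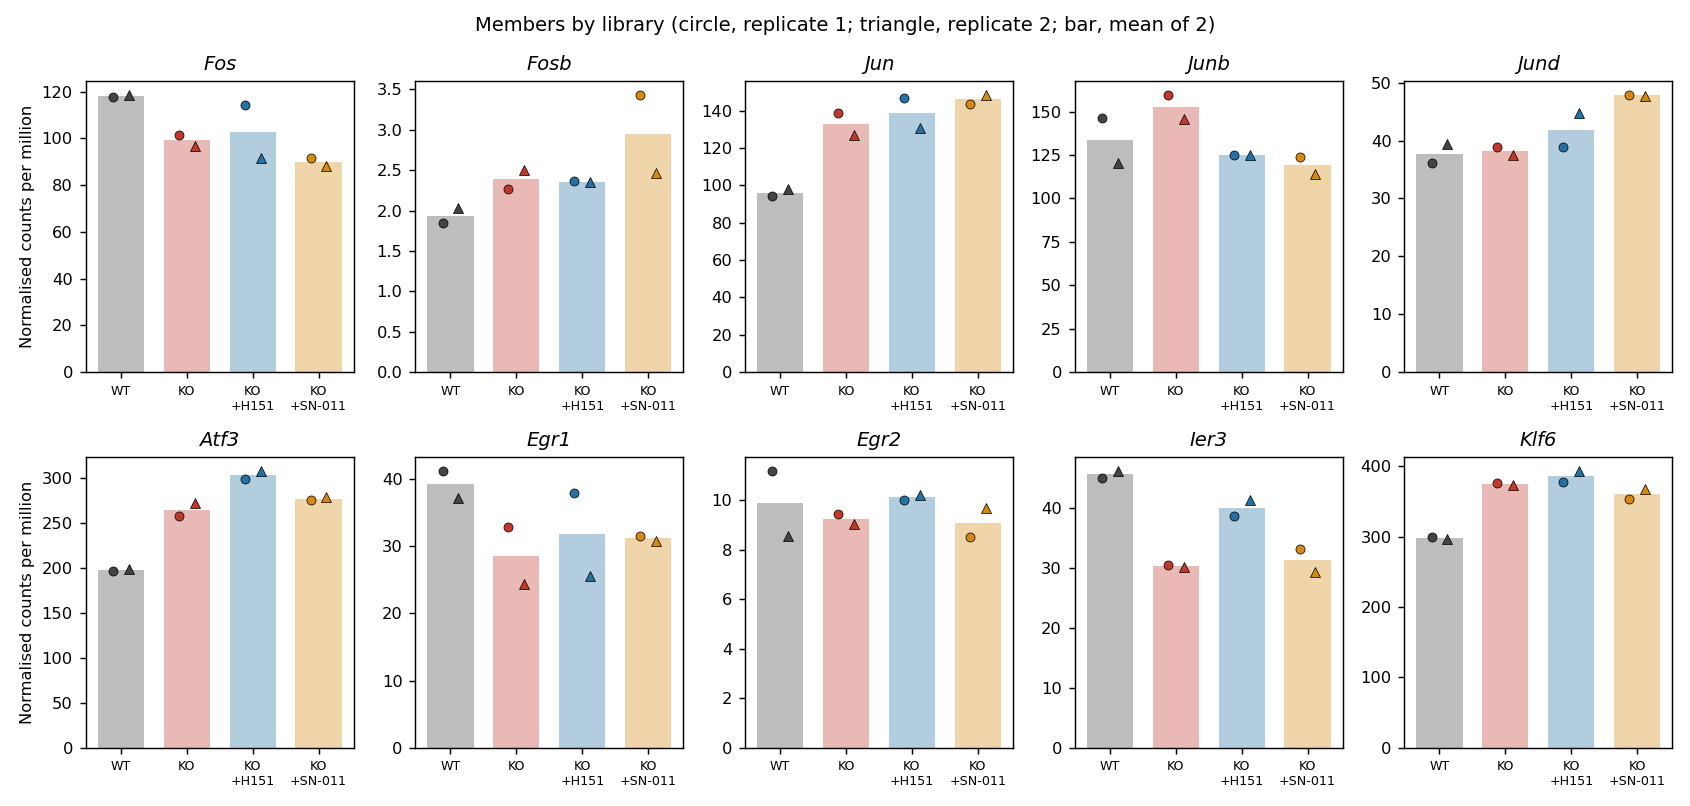
Normalised CPM of the 10 members in the 8 libraries, on axes from 0. Circles are replicate 1, triangles replicate 2 and bars the mean of 2: the WT libraries are lowest for Jun, Atf3 and Klf6 and highest for Ier3, and the H151 libraries are far apart for Fos (114 and 91.6 CPM) and Egr1 (38.0 and 25.6 CPM).

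Markers of other cell types moved with the same comparison. The 9 neutrophil markers summed to between 9.42 and 9.86 CPM in WT and between 66.1 and 101 CPM in the Trex1-KO groups, and all 6 that were tested were higher in Trex1-KO than in WT cells, while Ly6g, a defining neutrophil marker, had 0 to 3 counts. The 6 fibroblast markers summed to between 2069 and 2265 CPM in WT and between 849 and 1200 CPM in the other groups, with 4 of 5 tested lower in Trex1-KO than in WT cells. Of the 8 macrophage markers, 3 were higher in Trex1-KO cells. Their part in the differences between WT and Trex1-KO cells was not tested.

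Related genes were counted from 4 lists. Of 13 other AP-1 leucine zipper genes, 1 rose and 2 fell in Trex1-KO cells: Batf2, which encodes an interferon-induced Jun partner, went from 5.52 and 4.61 CPM in WT to 19.0 and 17.6 CPM, or 3.62-fold (adjusted p = 2.55e-06), a larger change than in any of the 10 members. Among the 2 that fell, Jdp2, which encodes a repressor of AP-1, changed most (log2 fold change -0.42; adjusted p = 0.0459). Of 8 genes of the Egr and serum response group, Egr4 had 0 counts in every library and 7 were tested, and only Nab1, which encodes an Egr corepressor, passed, at 0.30 on the log2 scale (adjusted p = 0.0058). Of 24 other immediate early genes, 4 rose and 2 fell. Gadd45b, which encodes a stress sensor, rose most (0.72 on the log2 scale; adjusted p = 0.00023), and Dusp1, which encodes a MAP kinase phosphatase, fell most (-0.38; adjusted p = 0.0177). Of 15 MAP kinase cascade genes, 2 rose, Map3k8 the most (0.39; adjusted p = 0.00222), and none passed in the lower direction. The 4 lists had median log2 fold changes of -0.02, 0.18, 0.03 and -0.001 in the same order. Of their tested genes, 23.1%, 14.3%, 25% and 13.3% were called, against 16.4% of all tested genes.

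**Figure D3:**
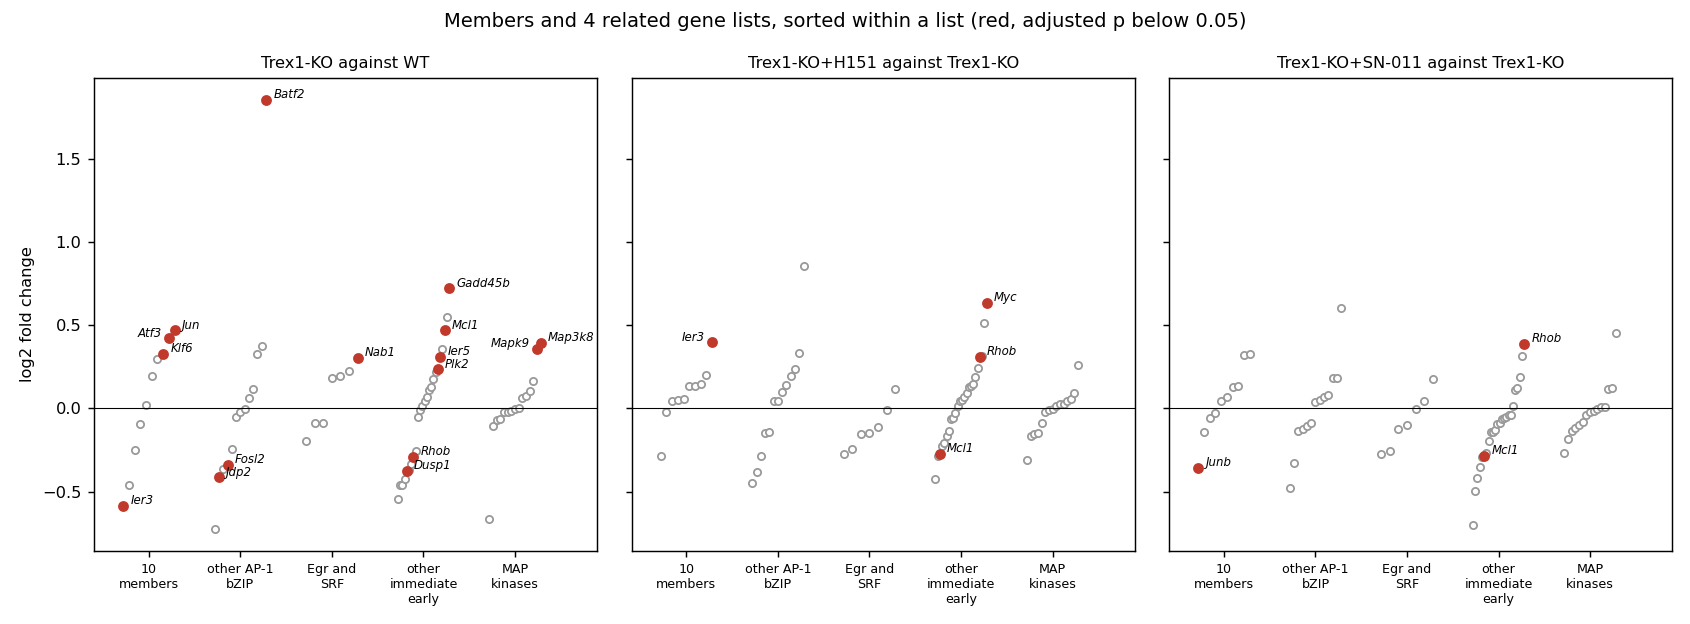
Log2 fold changes of the 10 members and of the tested genes of 4 related lists, sorted within each list, for Trex1-KO against WT and for each antagonist against Trex1-KO. Red points passed an adjusted p of 0.05 and are named: 4 members and 12 other genes in Trex1-KO cells, Batf2 farthest from 0, and 1 member and at most 3 other genes under an antagonist.

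H151 was given to Trex1-KO cells to block STING. The comparisons of H151 and of SN-011 with Trex1-KO and that of Trex1-KO with WT share the 2 Trex1-KO libraries, so their values are not independent of each other. Ier3 rose 1.32-fold, from 30.6 and 30.3 CPM to 38.7 and 41.3 CPM (log2 fold change 0.40, SE 0.0909; adjusted p = 0.038), and it was the only 1 of 10 members called, against 2.23% of all tested genes. The median log2 fold change of the members was 0.10, beside 0.001 over all genes. Jun and Klf6, which had risen in Trex1-KO cells, changed by 0.06 (95% interval -0.10 to 0.21) and 0.04 (95% interval -0.07 to 0.16) on the log2 scale. Atf3 lay higher with H151 in both libraries, at 0.20 on the log2 scale (95% interval 0.08 to 0.32; adjusted p = 0.116), and Junb lay lower in both, at 125 and 125 CPM against 160 and 146 CPM (-0.29, 95% interval -0.47 to -0.10; adjusted p = 0.155), and it passed with a filter at 1 count (0.00502). The Ier3 call was lost with DESeq2 (adjusted p = 0.0686), with only the 2 groups in the fit (0.1), and without any 1 of the WT, Trex1-KO or Trex1-KO+H151 libraries: without WT replicates 1 and 2 the adjusted p was 0.0609 and 0.0615, without Trex1-KO replicates 1 and 2 it was 0.146 and 0.191, and without Trex1-KO+H151 replicates 1 and 2 it was 0.0568 and 0.161.

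No gene of the other AP-1, the Egr and serum response or the MAP kinase list passed between H151 and vehicle in Trex1-KO cells. Of the 24 other immediate early genes, 2 rose and 1 fell. Myc, which encodes a growth factor-induced transcription factor, went from 12.0 and 9.76 CPM to 17.3 and 16.5 CPM (log2 fold change 0.64; adjusted p = 0.0407), and Mcl1, which encodes an anti-apoptotic protein, from 1042 and 989 CPM to 820 and 863 CPM (-0.27; adjusted p = 0.0117).

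With SN-011, Junb was the only member called. It fell from 160 and 146 CPM in Trex1-KO cells to 124 and 114 CPM, or to 0.78 of that level (log2 fold change -0.36, SE 0.0858; adjusted p = 0.0465), so that 1 of 10 members was called, against 2.33% of all tested genes. The median log2 fold change of the members was 0.06, beside 0.009 over all genes. Jund lay higher with SN-011, at 47.9 and 47.7 CPM against 38.9 and 37.5 CPM, without passing (0.32, 95% interval 0.13 to 0.52; adjusted p = 0.0965). Ier3 differed by 0.05 on the log2 scale (95% interval -0.15 to 0.25), Jun by 0.14 (-0.02 to 0.29), Atf3 by 0.07 (-0.05 to 0.19) and Klf6 by -0.06 (-0.17 to 0.06). The Junb call was lost with total counts as the only scaling (adjusted p = 0.0752), with a stricter count filter (0.0507), and without Trex1-KO replicate 1 (0.302), Trex1-KO+SN-011 replicate 1 (0.18) or Trex1-KO+SN-011 replicate 2 (0.368). Jund passed without Trex1-KO+H151 replicate 1 (0.047) or replicate 2 (0.0446), and with the edgeR exact test on all libraries (0.0449).

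Of the 4 related lists, genes passed between SN-011 and vehicle only among the other immediate early genes. In that list 8.33% of genes were called, against 2.33% of all tested genes. Rhob rose from 118 and 120 CPM to 157 and 153 CPM (log2 fold change 0.39; adjusted p = 0.00171), and Mcl1 fell to 823 and 846 CPM (-0.28; adjusted p = 0.00883). Rhob also rose with H151 (0.31; adjusted p = 0.0097), measured against the same Trex1-KO libraries. In the labels, the treatment text of the SN-011 libraries differs from that of the rest. Whether they were made with the rest is not given. In every comparison of the SN-011 group, against Trex1-KO, H151 or WT, a batch and the treatment therefore cannot be told apart.

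**Figure D4:**
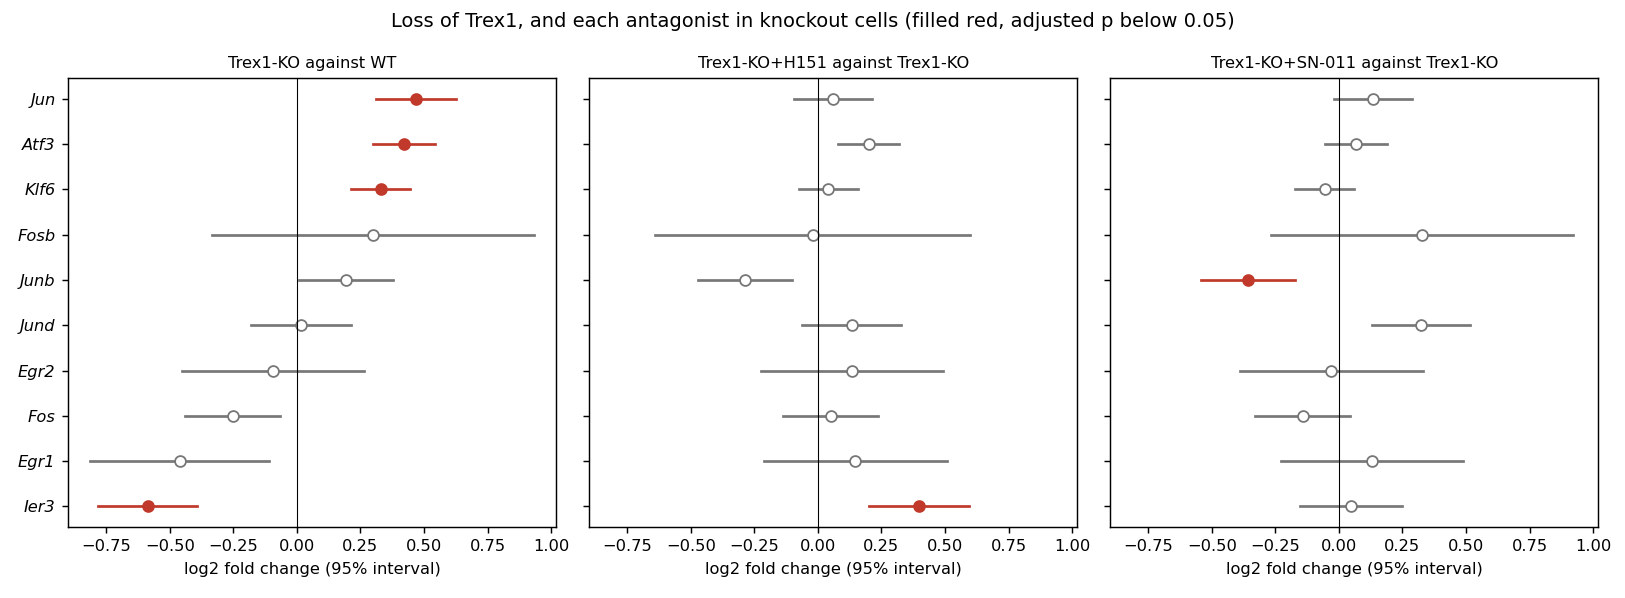
Log2 fold change of each member with its 95% interval for Trex1-KO against WT and for each antagonist against Trex1-KO. Filled red points passed an adjusted p of 0.05: Jun, Atf3, Klf6 and Ier3 in Trex1-KO cells, Ier3 with H151 and Junb with SN-011.

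Since a call with one antagonist and not with the other does not show a difference between them, the antagonists were compared with each other. None of the 10 members differed between Trex1-KO+SN-011 and Trex1-KO+H151 by edgeR's quasi-likelihood test, against 0.158% of all tested genes, and DESeq2 and the edgeR exact test also called 0. At an unadjusted p under 0.05 there were 3 of 10 members, against 8.91% of all tested genes. In that count, Ier3 was lower with SN-011 in both libraries (log2 difference -0.35, 95% interval -0.54 to -0.15; adjusted p = 0.26), as were Atf3 (-0.13, 95% interval -0.25 to -0.01; adjusted p = 0.532) and Fos (-0.19, 95% interval -0.38 to -0.004; adjusted p = 0.557). For Junb the difference was -0.07 (95% interval -0.26 to 0.11), and for Jund it was 0.19 (95% interval -0.001 to 0.38). For Jun and Klf6 the intervals ran from -0.08 to 0.23 and from -0.21 to 0.02. Without Trex1-KO+H151 replicate 2, Fos passed at a log2 difference of -0.35 (adjusted p = 0.0307). The median over the members was -0.08, beside 0.003 over all genes, and no gene of the 4 related lists passed.

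Jun, Atf3 and Klf6 were also higher than in WT cells in the Trex1-KO cells given either antagonist. These comparisons share the WT libraries with each other and with the comparison of Trex1-KO with WT. With H151, 3 of 10 members were called, all higher, against 11.8% of all tested genes (6.79% higher): Jun was 1.44-fold the WT level (adjusted p = 0.000264), Atf3 1.54-fold (adjusted p = 8.08e-06) and Klf6 1.29-fold (adjusted p = 0.000429). Ier3 was at -0.19 on the log2 scale with an interval reaching 0.0002 (adjusted p = 0.207). Without Trex1-KO+H151 replicate 1, Fos (-0.37; adjusted p = 0.00417) and Egr1 (-0.61; adjusted p = 0.0131) also passed, and with a filter at 1 count Egr1 passed (0.035). The median over the members was 0.10, beside 0.001 over all genes.

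With SN-011, 6 of 10 members were called against WT, 4 higher and 2 lower, against 11.7% of all tested genes (6.18% higher and 5.57% lower). Jun was 1.52-fold the WT level (adjusted p = 8.49e-05), Atf3 1.40-fold (adjusted p = 6.5e-05), Jund 1.27-fold (adjusted p = 0.0233) and Klf6 1.21-fold (adjusted p = 0.00407). Ier3 was at 0.688 of the WT level (adjusted p = 0.00114) and Fos at 0.76 (adjusted p = 0.00794). The median over the members was 0.08, beside 0.01 over all genes. Jun, Atf3 and Ier3 passed under all 16 alternatives. Klf6 was lost without Trex1-KO+SN-011 replicate 2 (adjusted p = 0.0695), whereas Fos and Jund were lost without WT replicate 1 (0.0537 and 0.202), WT replicate 2 (0.0549 and 0.053), Trex1-KO+SN-011 replicate 1 (0.0515 and 0.13) or Trex1-KO+SN-011 replicate 2 (0.0879 and 0.119). Jund was also lost with total counts as the only scaling (0.0553) and with DESeq2 (0.0678). Egr1, which was not called (-0.33; adjusted p = 0.253), passed with only the 2 groups in the fit (0.00949) and with a filter at 1 count (0.0249).

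**Figure D5:**
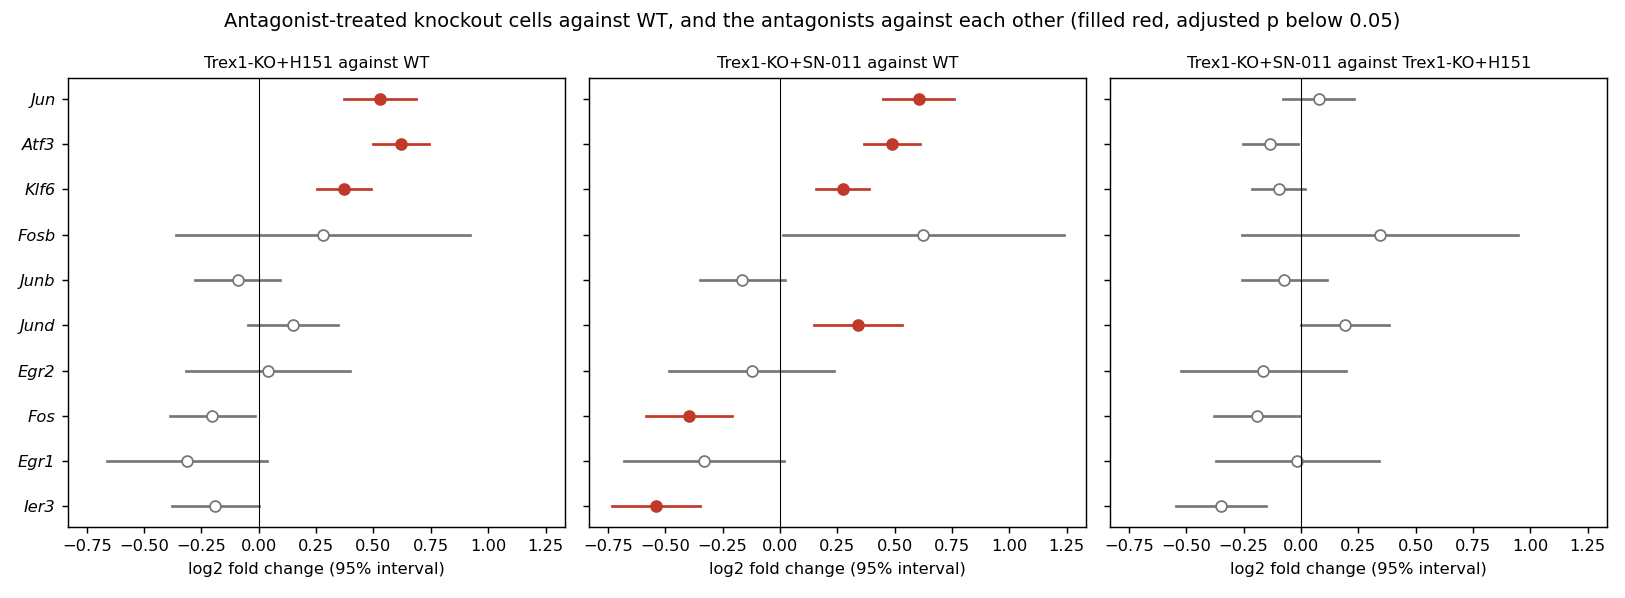
Log2 fold change of each member with its 95% interval for Trex1-KO+H151 and Trex1-KO+SN-011 against WT, and for SN-011 against H151. Filled red points passed an adjusted p of 0.05: Jun, Atf3 and Klf6 lie above WT with both antagonists, Jund, Fos and Ier3 pass with SN-011, and none passes between the antagonists.

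Among the related genes, Batf2 was 2.65-fold the WT level with H151 (adjusted p = 8.46e-05) and 2.60-fold with SN-011 (adjusted p = 9.51e-05). It was the only 1 of 13 other AP-1 genes called with H151, while with SN-011 Fosl2, which encodes a Fos-related AP-1 subunit, also passed, at -0.30 on the log2 scale (adjusted p = 0.0293). In the Egr and serum response list, Nab2, an Egr corepressor gene, passed with H151 (-0.36; adjusted p = 0.0493) and no gene passed with SN-011. Of the 24 other immediate early genes, 3 were higher with H151, led by Gadd45b (0.51; adjusted p = 0.00521). With SN-011, 3 were higher, again led by Gadd45b (0.63; adjusted p = 0.00112), and 1 was lower, the MAP kinase phosphatase gene Dusp5 (-0.96; adjusted p = 0.00428). In the MAP kinase list, 2 were higher with H151, led by Mapk9, which encodes the kinase JNK2 (0.27; adjusted p = 0.0162), and none passed with SN-011.

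The members differed in how far they ranged. The highest library exceeded the lowest by 1.87-fold for Fosb, 1.69-fold for Egr1, 1.58-fold for Jun and for Ier3, 1.57-fold for Atf3, 1.40-fold for Junb, 1.35-fold for Fos, 1.33-fold for Klf6 and 1.32-fold for Jund and for Egr2. Within groups, the SD of log2 CPM was largest for Egr1, at 0.258, and smallest for Klf6, at 0.0301, and Atf3, at 0.0329.

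For each member called in at least 1 comparison, the 10706 other tested genes whose log2 CPM averaged 2 or more were ranked by the root mean square difference of their log2 CPM, centred over the 8 libraries. Nearest to Jun were Plcb2, a phospholipase C gene (0.0446), and C1ra, a complement protease gene (0.0456). Atf3 was nearest to Ndrg1, a stress-response gene (0.0379), and Osbpl8 (0.0592), Klf6 to Pcyt1a (0.0331) and Mpeg1, the macrophage gene of perforin-2 (0.0345), and Ier3 to Cgnl1 (0.0741) and Loxl3 (0.0758). The pairs for Junb were Rassf4 (0.0411) and Rnf19b (0.0511), those for Fos were the mitochondrial gene mt-Co1 (0.0391) and Kctd11 (0.0504), and those for Jund were Klc4 (0.0509) and Ptger2 (0.0545). Mitochondrial genes took 1.66% and 1.69% of the counts in WT libraries and 1.26% to 1.45% in the others, and their part in the Fos values was not tested.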

How the data were processed

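RNA-Seq counts from 8 BMDM libraries were used, 2 in each of 4 groups read from the sample titles. The authors trimmed read pairs with Trimmomatic and aligned them with hisat2. Their methods name featureCounts on uniquely mapped pairs, whereas the submitters' processing notes name HISAT2, HTSeq and the build mm10, and no versions are given. The deposited values are raw counts per Ensembl gene, with no normalization. Symbols and positions came from GENCODE mouse release M21 (GRCm38), which held 54495 of 54532 identifiers. Reads shared by overlapping genes may be missing from both.

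Counts were fitted in R 4.3.3 with edgeR 4.0.16 (TMM factors 0.973 to 1.04; filterByExpr with the minimum count at 10 and the minimum total at 15; 14591 genes; 1 quasi-likelihood fit over all libraries). Tests were two-sided, p-values were adjusted over the 14591 genes by Benjamini-Hochberg, and genes with an adjusted p below 0.05 are said to be called. SEs are the size of the log2 fold change divided by the square root of F. Log2 CPM used a prior count of 2. The calculation was tested on simulated data. Alternatives were DESeq2 1.42.0, the edgeR exact test, other scalings and filters, a replicate block, 2-group fits and each library left out. Motifs were sought on both strands.

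The members, the 4 related lists and the marker lists were chosen with earlier results of these data known. All members are described. From the other lists, the text names the called gene with the largest absolute log2 fold change in each direction. Lyz2, Ly6g, Egr4, Trex1, Junos, Prdx2 and Gm11175 are named outside that rule, as is Rhob with H151. No interval or p-value covers more than the spread between 2 libraries a group, and CPM floors cover counting error only.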

Additional observations from a re-analysis of the deposited data

How the results depend on the processing

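The 4 calls between Trex1-KO and WT held under all 16 alternatives, with a count of 4 to 6 members. Of 960 values of single members under an alternative, 889 kept their direction and call, 24 lost the call, 26 gained it and 21 changed sign. Between H151 and Trex1-KO the count of 1 became 2 with a filter at 1 count or with the replicate block (Junb and Ier3; Junb at adjusted p = 0.038 under the block), and 0 with DESeq2 or with only the 2 groups compared. It ran from 0 to 1 over left-out libraries. Between SN-011 and Trex1-KO the count of 1 became 0 with total counts only or the stricter filter and 2 with the exact test, and ran from 0 to 2 over left-out libraries. Over left-out libraries the count was 0 to 1 between the antagonists, 3 to 5 for H151 against WT and 3 to 6 for SN-011 against WT. The causes were not tested. The numbers in the titles could pair libraries, but the labels do not say what they mark, and deviations of same-numbered libraries correlated from -0.016 to 0.19. The replicate block added Fos and Egr1 in Trex1-KO against WT (6 members in place of 4).

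Total counts only moved the median of all genes to -0.09 on the log2 scale for Trex1-KO against WT and the share of higher calls from 56.6% to 37.2%, for H151 against WT from 57.4% to 41.7%, and for SN-011 against WT from 52.6% to 40.3%. It turned the sign of 3 small values: Jund in Trex1-KO against WT (-0.0673), Fosb with H151 against Trex1-KO (0.00442) and Egr2 with H151 against WT (-0.0202). Over all genes, a filter at 1 count raised the calls from 325 to 525 for H151 against Trex1-KO, from 340 to 679 for SN-011 against Trex1-KO and from 23 to 266 between the antagonists. DESeq2 called 38 between the antagonists, the exact test 84 and the replicate block 44. Leaving out Trex1-KO+H151 replicate 2 raised the 23 to 270, and leaving out Trex1-KO+SN-011 replicate 1 or 2 lowered it to 2 or 11. The 340 for SN-011 against Trex1-KO became 197 without Trex1-KO replicate 1 and 121 or 174 without Trex1-KO+SN-011 replicate 1 or 2. Against WT, leaving out WT replicate 1 lowered the calls from 2390 to 1588 for Trex1-KO, from 1726 to 986 for H151 (1112 without WT replicate 2) and from 1714 to 975 for SN-011 (1052 or 906 without Trex1-KO+SN-011 replicate 1 or 2).

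No call turned its sign when a library was left out. Uncalled values that did had these log2 ranges: in Trex1-KO against WT, -0.0407 to 0.0805 for Jund and -0.28 to 0.11 for Egr2; with H151 against Trex1-KO, -0.12 to 0.20 for Fos, -0.0884 to 0.0577 for Fosb, -0.0265 to 0.14 for Jun and -0.16 to 0.41 for Egr1. With SN-011 against Trex1-KO they were -0.0715 to 0.36 for Egr1, -0.12 to 0.0692 for Egr2 and -0.0495 to 0.13 for Ier3. Between the antagonists they were -0.00523 to 0.16 for Jun and -0.28 to 0.28 for Egr1. Against WT they were -0.23 to 0.0529 for Junb and -0.14 to 0.24 for Egr2 with H151, and -0.31 to 0.0819 for Egr2 with SN-011. A group left with 1 library was assumed to vary like the others. Fosb, at 25 to 59 counts, is limited by depth.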
